A study of Mus musculus with 13 samples.

Results

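The genes described here are 10 members of the Eph receptor and ephrin family, taken by name from a transcript table of mouse glomeruli: the receptors *Epha2*, *Epha4*, *Ephb1*, *Ephb2*, *Ephb3* and *Ephb4* and the ligands *Efna1*, *Efna5*, *Efnb1* and *Efnb2*. All 10 were among the 35967 gene symbols of the table, and 9 of them passed the filter on low values, as did 14322 symbols in all. The glomeruli came from male wildtype Balb/c mice given 2.0 mg of rabbit IgG into the peritoneum, 1 library per mouse. Control mice (n = 5) received preimmune IgG, and mice with membranous nephropathy (MN), a disease in which antibodies deposit on the outer side of the glomerular filter, received IgG against THSD7A, a podocyte surface protein, and were killed at day 1 (n = 4) or day 5 (n = 4). Control mice of both days form 1 group, the labels give neither the day of each control mouse nor the age of the mice, and both comparisons with control therefore rest on the same 5 mice. The model is a passive transfer of rabbit antibody. Sampling ended at day 5, so the data hold the first days of injury only. Replicates were different mice, so the p-values measure the spread between mice.

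Eph receptors are receptor tyrosine kinases that bind ephrins held in the membrane of a neighbouring cell. Receptors and ligands are sorted into an A class, whose ephrins hang from a lipid anchor, and a B class, whose ephrins span the membrane, and binding can signal into the receptor cell (forward) and into the ephrin cell (reverse), where both routes act on the actin cytoskeleton and on cell contacts. In the glomerulus, ephrin-B1, encoded by *Efnb1*, is known as a component of the slit diaphragm, the contact between podocyte foot processes. Ephrin-B2 (*Efnb2*) and EphB4 (*Ephb4*) are known from blood vessels in general as a ligand and receptor pair of arterial and venous endothelium. Which glomerular cells carry them was not measured here.

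The authors deposited TPM values, transcript abundances on a fixed total per library, a unit that corrects for transcript length, so that levels can be compared between genes of a library, and that removes sequencing depth. Depth is therefore not known here, and intervals for counting error are not given. Libraries resembled each other (Spearman correlation across tested genes 0.971 to 0.988), and median-of-ratios factors between them were 0.955 to 1.04. The labelled tissue was checked with markers: 13 podocyte markers summed to 8791 to 11609 TPM in control libraries, and 10 leukocyte markers to 27.6 to 47.8 TPM. Tubular markers moved with the groups. All 12 had a log2 fold change above 0 at day 1 (median 0.73, none called), beside 49.2% of all tested genes, and their summed TPM was 517 to 1138 in control, 950 to 1551 in day 1 and 718 to 873 in day 5 libraries. At day 5, 12 of 13 glomerular endothelial markers (median 0.21) and 7 of 10 mesangial markers (median 0.08) had a log2 fold change above 0. So did 7 of 7 tested leukocyte markers (median 0.42), and none of these markers was called. All 5 parietal epithelial markers also lay above 0 (median 0.22), and *Cldn1* among them was called higher (1.08, adjusted p = 0.0036, limma). Over all tested genes the median at day 5 was -0.0032, and 2.42% were called higher. The part of these cell types in the results was not tested, apart from fits with a score of the tubular markers.

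Members spanned a wide range of levels in control glomeruli. *Efnb2* had the highest mean at 293 TPM (SD 39.8, n = 5), above 96.5% of the tested genes, followed by *Efnb1* at 203 TPM (SD 23.9), *Ephb4* at 145 TPM (SD 15.6), *Efna1* at 95.9 TPM (SD 15.8), *Ephb1* at 36.3 TPM (SD 4.48) and *Epha2*, an A class receptor of epithelia, at 26.8 TPM (SD 1.49). In this order each of these 6 genes lay above the next without overlap of the 5 control libraries. The lower 3 tested members overlapped with their neighbours in the order of the whole family, namely *Epha4* (4.09 TPM, SD 1.06), *Ephb3* (2.21 TPM, SD 0.57) and *Efna5* (1.98 TPM, SD 0.42). *Ephb2* lay at 0.26 to 0.96 TPM over all 13 libraries, under the minimum of 1 TPM in 4 libraries, and was not tested.

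The order changed at one place among the abundant members. At day 5, *Epha2* lay above *Ephb1* in every library (28.0 to 29.0 against 18.0 to 24.96 TPM), whereas in control mice every *Ephb1* value lay above every *Epha2* value (32.3 to 42.5 against 25.5 to 28.9 TPM). At day 1, the libraries of these 2 receptors overlapped. *Efnb2* and *Efnb1* were the 2 most abundant family transcripts in each of the 3 groups.

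**Figure D1:**
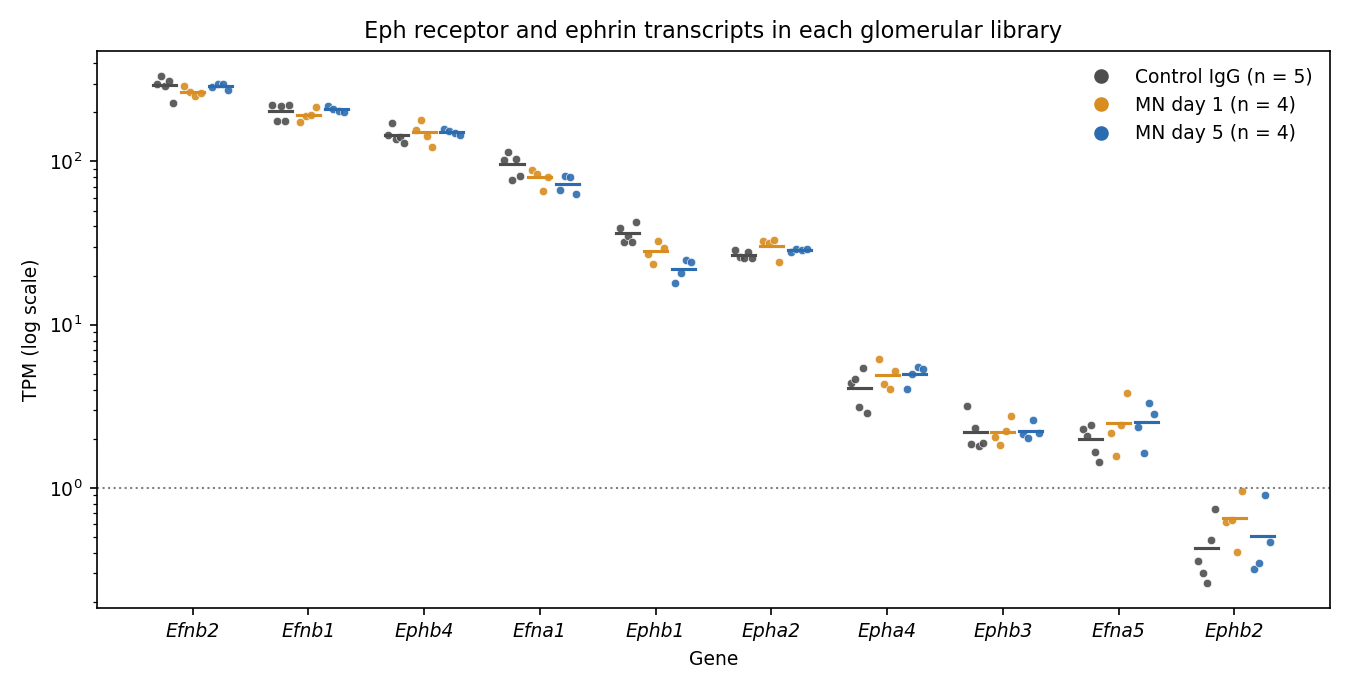
TPM on a log axis of the 10 members in each library, ordered by the control mean, with a point per library and a line at each group mean. The dotted line marks 1 TPM. *Ephb1* steps down from control (36.3 TPM) over day 1 (28.2 TPM) to day 5 (21.9 TPM), and the other members keep overlapping ranges.

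Of the 9 tested members, 0 were called at day 1 and 1, *Ephb1*, was called at day 5, where it was lower in MN. A call required an adjusted p under 0.05 (limma with Benjamini-Hochberg adjustment over all 14322 tested genes) and an absolute log2 fold change above 0.5. Over all genes tested, 0.0908% were called at day 1 and 3.21% at day 5, and 0.789% were called lower at day 5. At an unadjusted p under 0.05, 2 members passed at day 1 (*Ephb1* and *Epha2*), against 12.6% of all tested genes, and 2 at day 5 (*Ephb1* and *Efna1*), against 20.1%. The median log2 fold change of the 9 members was 0.05 at day 1 and 0.08 at day 5, beside -0.0029 and -0.0032 over all tested genes.

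*Ephb1*, a B class receptor, lies on the minus strand of chromosome 9 (101799327 to 102231898, GRCm39). Of the noncoding genes annotated on the opposite strand of this locus, *9630041A04Rik* was matched in the table (median 0.0769 TPM). Control libraries held 39.1, 32.3, 35.1, 32.3 and 42.5 TPM, day 1 libraries 27.0, 23.6, 32.6 and 29.4 TPM, and day 5 libraries 18.0, 20.8, 24.96 and 24.1 TPM. Every day 5 library lay below every control library, as was the case for 5.71% of all tested genes, and 1 day 1 library reached into the control range. The log2 fold change at day 5 was -0.68 (SE 0.11, 95% confidence interval -0.93 to -0.43, adjusted p = 0.00271, limma), which placed *Ephb1* at rank 235 by p among all tested genes. At day 1 it was -0.31 (95% confidence interval -0.56 to -0.07, adjusted p = 0.309, limma). Day 5 and day 1 differed by -0.37 (95% confidence interval -0.63 to -0.11, adjusted p = 0.154, limma) and the libraries overlapped, so the step between the days was not called. The day 5 call held when any 1 of the 13 libraries was left out (-0.73 to -0.61). It also held with a score of the tubular markers in the fit, at -0.68 (adjusted p = 0.00254, limma). These markers had a median log2 fold change of 0.06 at day 5, so the score had little group difference to remove.

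In bulk glomeruli, fewer cells of a type and less RNA per cell cannot be told apart, and the cell that carried a transcript was not measured. To set *Ephb1* against podocyte transcripts of the same library, the mean log2 level of the 13 podocyte markers was subtracted. The difference averaged -3.61 (SD 0.12, n = 5) in control, -3.86 (SD 0.17, n = 4) in day 1 and -4.26 (SD 0.20, n = 4) in day 5 libraries. At day 5 it was 0.64 lower than in control on the log2 scale, given as -0.64 for MN minus control. The exact two-sided permutation test over libraries gave p = 0.00794, the smallest that 126 splits allow. Adjusted over the 4 such tests of *Ephb1* and *Efnb1* against control, this permutation p was 0.0318. All 4 day 5 libraries (-4.51 to -4.07) lay below all 5 control libraries (-3.77 to -3.50). *Ephb1* alone already set these libraries apart before the subtraction, so this test is not independent of its call. At day 1 the difference was -0.25 (p = 0.0476, same exact permutation test, adjusted 0.0952), and it missed 0.05 when any 1 control library or MN day 1 replicate 1, 2 or 4 was left out (exact permutation p from 0.0571 to 0.114). Podocyte markers lay on both sides of 0 at day 5, 6 above and 7 below, with a median log2 fold change of -0.12. Among them *Cdkn1c*, a cell cycle inhibitor, was called higher (0.72, adjusted p = 0.000708, limma), and *Synpo*, encoding the actin-binding protein synaptopodin, had -0.46 (adjusted p = 0.00197, limma), short of the fold required for a call.

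*Efnb1*, the slit diaphragm ligand on the X chromosome (98179680 to 98205454, plus strand, GRCm39), did not show the pattern of *Ephb1*. Its TPM were 222, 177, 219, 178 and 221 in control, 174, 191, 194 and 216 in day 1 and 218, 211, 205 and 200 in day 5 libraries. The day 5 values all fell inside the control range. At day 1 the log2 fold change was -0.02 (95% confidence interval -0.23 to 0.18, adjusted p = 0.954, limma), and at day 5 it was 0.08 (95% confidence interval -0.13 to 0.28, adjusted p = 0.726, limma). The day 5 interval does not reach a change of 0.5 in either direction. Relative to the podocyte markers, *Efnb1* differed from control by 0.04 at day 1 (exact two-sided permutation test, p = 0.619, adjusted 0.619) and 0.11 at day 5 (p = 0.0952, exact permutation, adjusted 0.127).

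**Figure D2:**
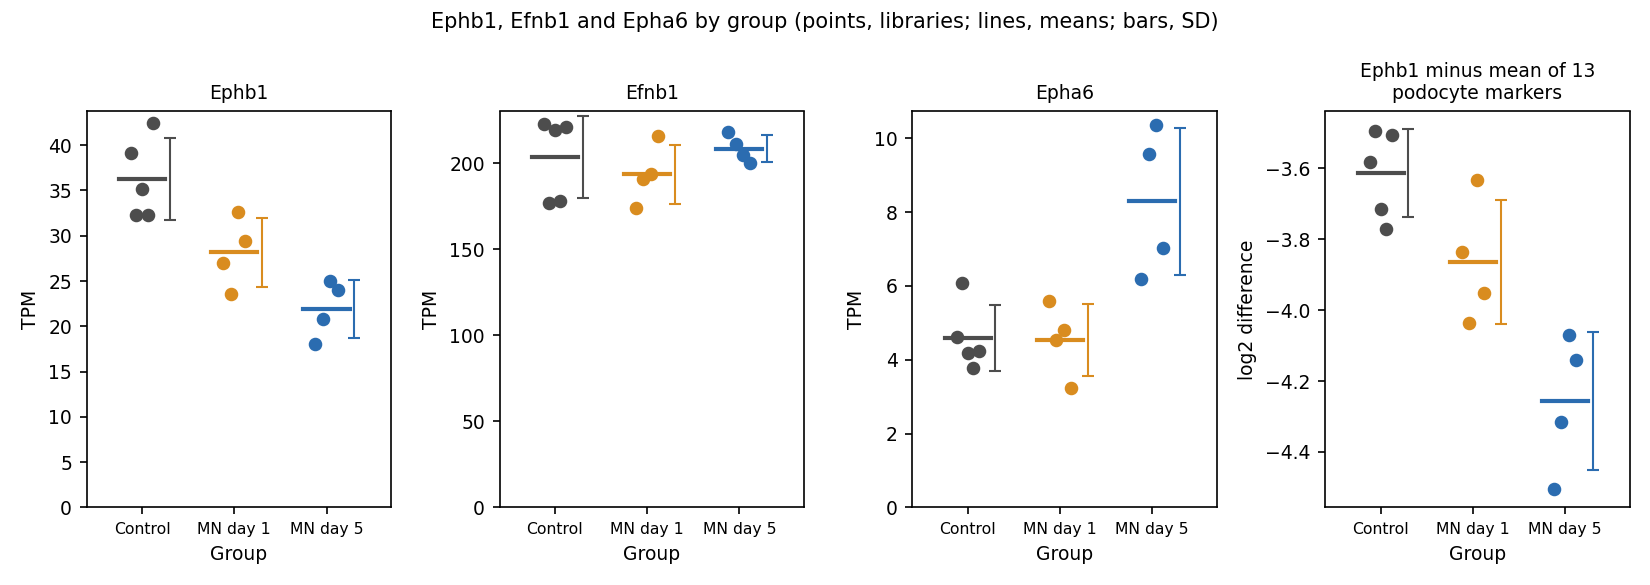
TPM of *Ephb1*, *Efnb1* and *Epha6* and the log2 level of *Ephb1* minus the mean of 13 podocyte markers, by group, with a point per library, lines at the means and bars of 1 SD. The 3 TPM axes start at 0 and the last axis does not. Day 5 libraries lie apart from control for *Ephb1* (at most 24.96 against at least 32.3 TPM) and *Epha6* (at least 6.19 against at most 6.08 TPM), and inside the control range for *Efnb1*.

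The reference promoter windows of the 2 family genes called at day 5, *Ephb1* and *Epha6*, and of *Efnb1* are printed to show the sequence at their starts. Each runs from 250 bases before to 50 bases after the RefSeq start, 5′ to 3′ on the strand of the gene, and was located once in GRCm39. Capitals mark the CCAAT box and the GC box, spelled GGGCGG, on either strand, which do not overlap here. The motifs were chosen after the sequences were seen.
Ephb1, chr9:102231843-102232142, minus strand: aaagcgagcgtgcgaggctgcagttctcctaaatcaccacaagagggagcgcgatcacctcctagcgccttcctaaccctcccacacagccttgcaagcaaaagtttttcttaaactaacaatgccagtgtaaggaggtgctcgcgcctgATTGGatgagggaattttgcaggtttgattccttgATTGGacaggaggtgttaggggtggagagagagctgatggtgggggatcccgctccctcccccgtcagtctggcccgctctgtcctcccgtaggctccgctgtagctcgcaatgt
Efnb1, chrX:98179417-98179716, plus strand: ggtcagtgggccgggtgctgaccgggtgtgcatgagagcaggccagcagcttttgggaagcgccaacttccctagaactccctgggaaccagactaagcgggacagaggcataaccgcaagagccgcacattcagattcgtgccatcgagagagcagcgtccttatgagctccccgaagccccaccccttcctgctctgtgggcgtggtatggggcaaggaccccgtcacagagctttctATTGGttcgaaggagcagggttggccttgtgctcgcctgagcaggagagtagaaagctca
Epha6, chr16:60425845-60426144, minus strand: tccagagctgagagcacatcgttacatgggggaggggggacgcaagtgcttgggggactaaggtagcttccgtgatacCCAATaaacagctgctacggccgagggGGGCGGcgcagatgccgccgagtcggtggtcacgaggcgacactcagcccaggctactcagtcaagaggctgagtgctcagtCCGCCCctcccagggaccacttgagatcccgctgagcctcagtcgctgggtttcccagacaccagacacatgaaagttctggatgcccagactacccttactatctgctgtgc

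The *Ephb1* window held 2 matches to CCAAT and 0 to GGGCGG, that of *Efnb1* 1 and 0, and that of *Epha6* 1 and 2. Among 32851 mouse promoter windows of this length, 37.4% held CCAAT and 35.7% GGGCGG on either strand. TATAAA (13.6% of windows) and GCGNGGGCG, the core shared by EGR factors and the podocyte factor WT1 (5.55%), had no match in the 3 windows. Their GC contents were 55.7%, 59.7% and 60.3%, beside a median of 52.7%. A match is a description of letters, and binding was not measured.

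The other receptors among the members were not called at either day. *Ephb4* was at 146, 171, 138, 141 and 130 TPM in control and 159, 154, 149 and 145 TPM in day 5 libraries, within the control range, with a log2 fold change of 0.10 (95% confidence interval -0.11 to 0.32, adjusted p = 0.642, limma). *Epha2* ranged from 25.5 to 28.9 TPM in control, 24.2 to 32.8 TPM in day 1 and 28.0 to 29.0 TPM in day 5 libraries. Of the day 1 libraries, 3 lay above the control range and replicate 4, at 24.2 TPM, lay below it. The log2 fold changes of *Epha2* were 0.21 (day 1, adjusted p = 0.343, limma) and 0.13 (day 5, adjusted p = 0.425, limma). *Epha4*, a receptor that binds ligands of both classes, had 0.30 and 0.31 at the 2 days, the latter with a 95% confidence interval from -0.07 to 0.68, which includes a change of 0.5. *Ephb3* had 0.05 and 0.06.

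The other ligands among the members were not called either. For *Efna1*, an A class ligand, control libraries held 102, 115, 77.5, 103 and 81.7 TPM and day 5 libraries 66.6, 81.1, 80.8 and 63.1 TPM, and both groups overlapped. Its log2 fold change of -0.21 at day 1 (adjusted p = 0.517, limma) was followed by -0.35 at day 5 (95% confidence interval -0.62 to -0.08, adjusted p = 0.125, limma), which was not called. *Efnb2* held 288, 298, 300 and 273 TPM at day 5, within a control range of 228 to 334 TPM. Its log2 fold changes were -0.07 and 0.03, the latter with a 95% confidence interval from -0.15 to 0.21 and a sign that turned under quantile normalization (-0.037). *Efna5*, also of the A class, at 1.44 to 3.82 TPM in all libraries, had 0.28 and 0.31 (adjusted p = 0.643 and 0.506, limma).

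**Figure D3:**
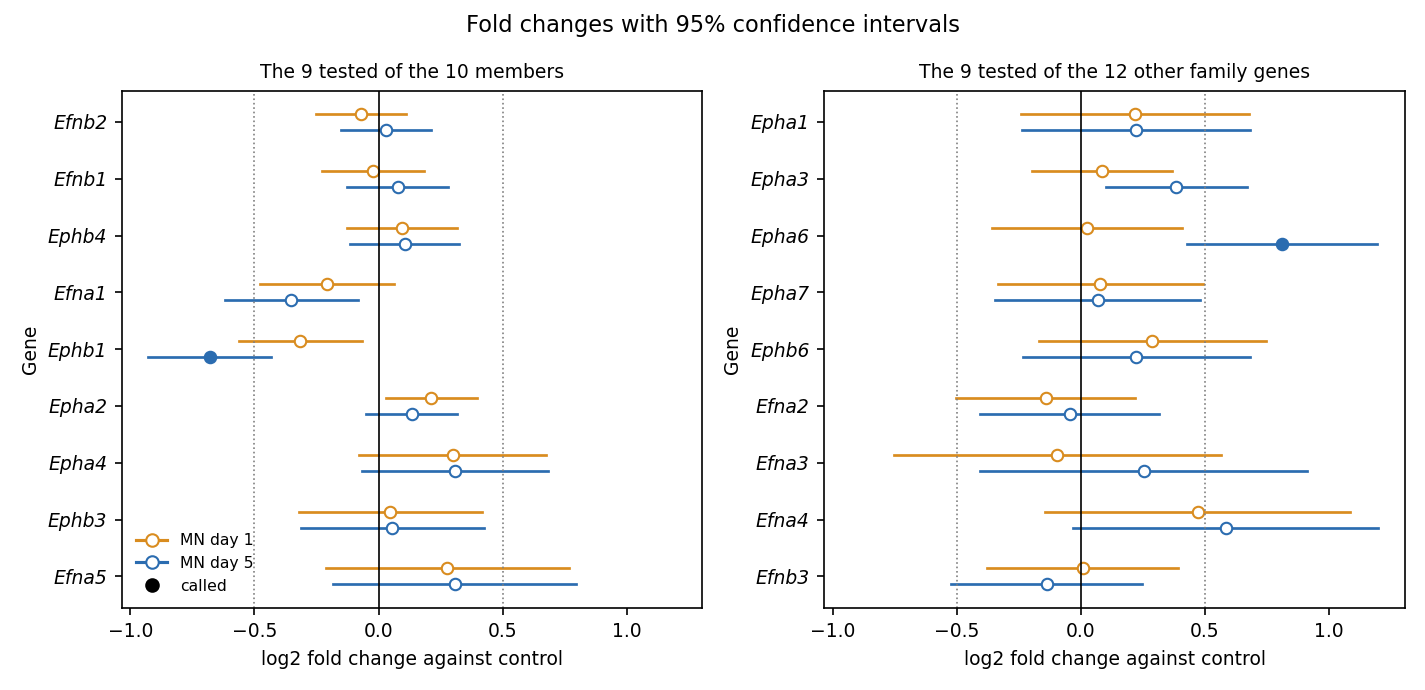
Log2 fold changes against control with 95% confidence intervals for the tested members (left) and the other tested family genes (right) at day 1 and day 5. Filled points were called and dotted lines mark an absolute log2 fold change of 0.5. The filled points are *Ephb1* (-0.68) and *Epha6* (0.81), both at day 5.

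The mouse genome holds 12 further family genes, of which 9 were tested. Of these, 0 were called at day 1, 1 at day 5 and 1 between day 5 and day 1. Over all tested genes, 2.42% were called higher at day 5, and between the days 1.81% were called and 1.41% were called higher. Both calls were *Epha6*, an A class receptor best known from the nervous system, on the minus strand of chromosome 16 (59473846 to 60425894, GRCm39). Its TPM were 4.63, 6.08, 4.18, 3.78 and 4.24 in control, 5.60, 4.53, 4.80 and 3.25 in day 1 and 6.19, 9.57, 10.4 and 7.03 in day 5 libraries. Every day 5 library lay above every control library, with MN day 5 replicate 1 (6.19 TPM) just above control replicate 2 (6.08 TPM). Among all tested genes, 5.07% had day 5 libraries above all control libraries. The log2 fold change was 0.02 at day 1 (adjusted p = 0.973, limma), 0.81 at day 5 (SE 0.18, 95% confidence interval 0.43 to 1.19, adjusted p = 0.0152, limma) and 0.79 between day 5 and day 1 (adjusted p = 0.0457, limma). The day 5 call was lost without MN day 5 replicate 2 (0.73, adjusted p = 0.0649, limma) and without MN day 5 replicate 3 (0.72, adjusted p = 0.0513, limma). The difference between the days was called in 4 of 13 such fits, and was lost without control replicate 1, 3 or 4, MN day 1 replicate 2, 3 or 4, or MN day 5 replicate 2, 3 or 4 (0.65 to 0.86, adjusted p from 0.0557 to 0.15, limma). With a score of the tubular markers in the fit it was 0.50 (adjusted p = 0.619, limma). All 12 tubular markers had a log2 fold change below 0 between these days (median -0.75, 2 called lower). The score therefore moved with the groups compared, and this fit cannot separate it from the group difference.

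The remaining 8 tested family genes had log2 fold changes from -0.14 (*Efnb3*) to 0.58 (*Efna4*) at day 5 and none was called. *Epha3* was the only one of them whose libraries did not overlap, with 8.45 to 10.3 TPM in control and 10.8 to 13.7 TPM at day 5 (log2 fold change 0.38, adjusted p = 0.112, limma), and 5.07% of all tested genes did not overlap in this direction. *Epha7* stayed near 10.4 TPM in each group mean. *Epha5* (at most 1.10 TPM) and *Epha10* (at most 0.12 TPM) were under the filter, and *Epha8* was listed at 0 in all 13 libraries. *Epha1* shares its locus with *Zyx* on the opposite strand (median 102 TPM), and whether the libraries kept strand is not given in the sources used here, so its values are uncertain.

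Sums, shares and ratios within the family were also formed. They were chosen after the values were seen, so their permutation tests are not reported here. The 14 Eph receptor transcripts summed to a mean of 245 TPM (SD 16.2, n = 5) in control, 249 TPM (SD 27.5, n = 4) at day 1 and 248 TPM (SD 7.21, n = 4) at day 5. *Ephb1* held 14.9% (SD 2.49) of this sum in control, 11.5% (SD 2.46) at day 1 and 8.84% (SD 1.14) at day 5, and *Epha6* held 1.86% (SD 0.25), 1.81% (SD 0.26) and 3.33% (SD 0.72). *Ephb4* carried most of the pool in all libraries (57.1% to 66.1%). The 8 ephrins summed to 604 TPM (SD 39.4), 553 TPM (SD 22.6) and 584 TPM (SD 24.5). The log2 ratio of *Ephb1* to *Efnb1* averaged -2.49 (SD 0.10), -2.79 (SD 0.20) and -3.26 (SD 0.27), and day 5 libraries (-3.60 to -3.04) did not overlap with control (-2.64 to -2.38). For *Ephb4* to *Efnb2* it averaged -1.01 (SD 0.13), -0.84 (SD 0.22) and -0.93 (SD 0.06), with overlapping libraries.

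The genes whose pattern was most like that of *Ephb1*, by the root-mean-square difference of log2 levels centred on control over the 13 libraries, were *Plce1*, which encodes phospholipase C epsilon (0.127), *Cyp27a1*, a sterol hydroxylase (0.135), *Hoxc8*, a homeobox factor (0.141), *Pard3b*, a cell polarity protein (0.143), and *Nek1*, a kinase of cilia and DNA repair (0.148). Their log2 fold changes at day 5 lay between -0.77 and -0.57, beside -0.68 for *Ephb1*, and they were 24.2 to 89.4 TPM in control. For *Efnb1* the nearest genes were *Clic5*, one of the podocyte markers (0.0719), *Naa20* (0.0766), *Lasp1* (0.0779), *Fndc3b* (0.0779) and *Hs3st6* (0.0783), with day 5 log2 fold changes from 0.03 to 0.09. Both sets of genes were chosen by closeness in these same libraries, so similar fold changes follow from the choice.

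Downstream of the receptors, 24 adaptors and kinases were tested, and 0 were called at either day, beside 0.0908% of all tested genes at day 1 and 3.21% at day 5. The median log2 fold change was 0.02 at day 5. The 4 with the smallest p were *Sdcbp*, the scaffold syntenin that binds the tails of B class ephrins (0.28, adjusted p = 0.0078, limma), *Ptk2*, focal adhesion kinase (0.28, adjusted p = 0.0266), *Shc1*, an adaptor of tyrosine kinases (0.26, adjusted p = 0.0514), and *Lyn*, a kinase of the Src family (0.21, adjusted p = 0.122). The first 3 had day 5 libraries above all control libraries, as did 5.07% of all tested genes, and stayed under the fold required for a call.

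Of 25 GTPases and their regulators and effectors, which carry Eph signals to actin, 0 were called at day 1, 1 higher and 1 lower at day 5 (median 0.04), a share to be read beside 3.21% of all tested genes. *Kalrn*, an exchange factor activated downstream of EphB receptors, was at 16.1 to 24.6 TPM in control and 29.3 to 36.8 TPM at day 5 without overlap (0.73, adjusted p = 0.0241, limma). This call was lost without control replicate 1 or 5 or any 1 of the 4 day 5 libraries (0.68 to 0.77, adjusted p from 0.0528 to 0.0666, limma). *Pak1*, a kinase that acts below Rac and Cdc42, was at 144 to 210 TPM in control and 103.6 to 132 TPM at day 5 without overlap (-0.56, adjusted p = 0.0178, limma), and this call was lost without MN day 5 replicate 1 (-0.51, adjusted p = 0.0686, limma). Of all tested genes, 5.07% lay above control without overlap at day 5 and 5.71% lay below. *Cfl1*, encoding the actin-severing protein cofilin, and *Rhoa* had 0.36 (adjusted p = 0.00437) and 0.27 (adjusted p = 0.0136, limma), short of a call.

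Of 16 genes of shedding and dephosphorylation, which end Eph and ephrin contacts, 0 were called at day 1 and 1, higher, at day 5 (median 0.11), beside 2.42% of all tested genes called higher. *Rhbdl2*, a rhomboid protease of the cell surface, was at 5.34, 7.66, 5.81, 6.41 and 5.21 TPM in control, 5.19, 8.21, 5.52 and 4.34 TPM in day 1 and 12.99, 8.99, 11.8 and 11.5 TPM in day 5 libraries. All day 5 libraries lay above all control libraries. The log2 fold change was 0.88 (SE 0.17, adjusted p = 0.00716, limma), called when any 1 of the 13 libraries was left out. Day 5 libraries lay above all control libraries in 5.07% of all tested genes. *Adam10*, a metalloprotease that cleaves ephrins, lay at 66.2 to 73.0 TPM in control and 82.0 to 91.1 TPM at day 5, a small and tight difference (0.32, SE 0.05, adjusted p = 0.00128, limma) that did not reach the fold for a call. *Ptprf*, a receptor phosphatase, had 0.28 (adjusted p = 0.0292) and *Cblb*, a ubiquitin ligase of tyrosine kinases, -0.24 (adjusted p = 0.168, limma).

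**Figure D4:**
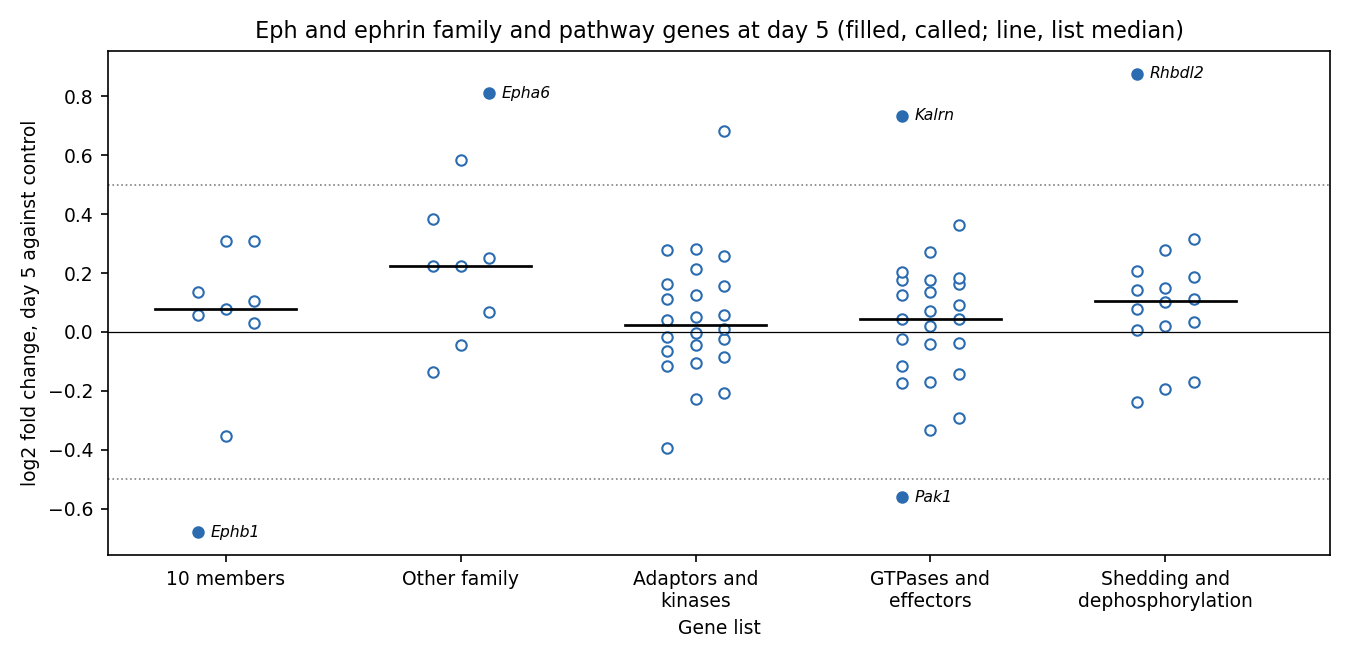
Log2 fold changes at day 5 of all tested genes in 5 lists, a point per gene, with called genes filled and named and a line at each list median. Dotted lines mark 0.5 in both directions. The medians lie between 0.02 (adaptors and kinases) and 0.22 (other family genes), and 5 genes are filled, namely *Ephb1*, *Epha6*, *Kalrn*, *Pak1* and *Rhbdl2*.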

How the data were processed

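Total RNA of glomeruli isolated from 13 mice was sequenced, 1 library per mouse. The authors trimmed the reads, quantified them with kallisto 0.46.2 against GRCm39 (Ensembl 104) and deposited TPM values, 1 per gene symbol and library. FastQC 0.11.9 and Trimmomatic 0.39 are named in the submitters' processing notes. How transcripts were summed to symbols and whether libraries kept strand are not given in the sources used here. TPM hold no depth, so no counting interval or floor is given. The study tested counts with DESeq2, and counts were not used here.

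Libraries were scaled with median-of-ratios factors from the 15772 genes never listed at 0, and values were put on the scale log2(TPM + 0.5), which understates changes of low genes. Genes that reached 1 TPM in 4 or more libraries (14322) entered 1 fit of all 3 groups with limma 3.58.1 (eBayes with trend, R 4.3.3) and Benjamini-Hochberg adjustment. Calls needed an adjusted p under 0.05 and a log2 fold change beyond 0.5 in size. Single values were compared by exact two-sided permutation over libraries. Members and lists were chosen with earlier results of these data known. Named genes were all members, the other family genes, called genes of 3 pathway lists or the 4 with the smallest p at day 5 where fewer than 4 were called, and the 5 genes most like *Ephb1* and *Efnb1*. Other genes are named as markers, and some are not reported here. Loci come from the reference annotation of GRCm39, and promoter windows from RefSeq, where all 10 members matched. No other gene shared at least 90% identity over at least 50% of a family transcript (BLAST 2.17.0). Same-numbered libraries of different groups did not deviate together (correlations -0.0563 to 0.0913 in 12 pairs). This cannot exclude that the numbers pair the mice, and the main fit used no pairing. Plots used matplotlib 3.10.9.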

Additional observations from a re-analysis of the deposited data

Results flagged for a closer look

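In 63 checks of single libraries within groups, over 21 family genes, 2 values stood far from the rest of their group, where chance flags about 1 in 20 groups. *Epha2* was at 24.2 TPM in MN day 1 replicate 4, and the other 3 libraries of that group were at 31.7 to 32.8 TPM. *Epha10* was at 0.0641 TPM in MN day 5 replicate 4 and listed at 0 in the other 3 libraries of that group. With 3 libraries at 0 any other value is flagged, so the chance rate above does not apply to *Epha10*. *Epha6* differed between day 5 and day 1 by 0.79 on the log2 scale (adjusted p = 0.0457, limma with Benjamini-Hochberg adjustment). This call was kept in 7 of 12 other settings and in 4 of 13 fits that left out 1 library.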

How the results depend on the processing

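The counts of called members (0 at day 1, 1 at day 5, 0 between the days) were the same under all 12 other settings and all 13 fits that left out 1 library, and *Ephb1* was called at day 5 in each (log2 fold change -0.73 to -0.61). With the replicate number as a block, *Ephb1* at day 5 was -0.61 (adjusted p = 0.0125, limma), and *Efnb1* at day 1 (0.023), *Efnb2* (-0.045) and *Epha7* (-0.096) at day 5 turned sign, *Pak1* lost its call (-0.50, adjusted p = 0.0567) and 149 genes of the whole table were called at day 1. Only control has a replicate 5, so the block takes that library out of the group differences. Without control replicate 5, the same 4 log2 fold changes were -0.61, 0.024, -0.046 and -0.097. The exact test of *Ephb1* relative to podocyte markers at day 1 missed 0.05 with quantile normalization (-0.21, p = 0.0794, exact permutation) and without *Foxc2* and *Nes* among the markers (-0.24, p = 0.0556, exact permutation, a setting chosen after seeing the data), and it missed it in 8 of 13 fits that left out 1 library (exact permutation p from 0.0571 to 0.114 in these 8). The day 1 test holds no day 5 library, so leaving out a day 5 library kept p at 0.0476 (exact permutation) and could not change the outcome. Over all 13 fits the difference was -0.33 to -0.19. At day 5 this difference was -0.71 to -0.56 in the 13 fits. *Efnb1* relative to podocyte markers at day 1 turned sign with the median of the markers (-0.050), and was -0.0037 to 0.065 over the fits that left out 1 library, negative without control replicate 4. Values near 0 that turned sign were *Epha6* at day 1 with TPM as deposited (-0.017) and quantile normalization (-0.022), *Efnb2* at day 5 with the same 2 settings (-0.0063 and -0.037), *Ephb3* with array quality weights at day 1 (-0.013) and day 5 (-0.0088), and *Efnb2* at day 1 with the tubular marker score (0.097, chosen after seeing the data). Leaving out 1 library gave -0.043 to 0.16 for *Ephb3*, -0.0020 to 0.19 for *Ephb4*, -0.079 to 0.026 for *Efnb1* and -0.076 to 0.16 for *Epha6* at day 1, and 0.0020 to 0.17 for *Ephb3*, -0.046 to 0.070 for *Efnb2*, -0.097 to 0.18 for *Epha7* and -0.086 to 0.025 for *Efna2* at day 5. *Epha6* at day 5 (0.81, adjusted p = 0.0575), *Kalrn* (0.73, adjusted p = 0.11) and *Pak1* (-0.56, adjusted p = 0.0877, limma) lost their calls without the filter on low TPM. Between the days, the *Epha6* call was lost with TPM as deposited (adjusted p = 0.0513), without the filter (0.151), with at least 1 TPM required in every library (0.0503), when control was left out of the fit (0.0657) and with the tubular marker score (0.619, limma). Over all settings, the genes called in the whole table numbered 2 to 218 at day 1 (13 as reported, 218 without control replicate 5), 321 to 876 at day 5 (460 as reported, 876 by the adjusted p alone) and 99 to 437 between the days (259 as reported). The cause of these shifts was not tested. TPM without counts limit what can be said of genes near 1 TPM.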
